A study of Mus musculus with 18 samples.

Results

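Expression of 9 genes that act next to the T cell receptor was followed through the first stages of T cell development: Lat, Lcp2, Prkcq, Fyn, Txk, Grap2, Rasgrp1, Vav1 and Ptpn22. All probe sets annotated with one of these symbols were taken. These were 14 of 22626 probe sets, which stand for 9 of 12393 genes with a probe set of their own. Rasgrp1 was measured by 3 probe sets, Lcp2, Fyn and Grap2 by 2 each, and the other 5 genes by 1 each. Messenger RNA was measured on Affymetrix mouse arrays in 6 populations sorted from C57BL/6 thymi, with 3 arrays per population and 18 in all. All populations lacked lineage markers. Early thymic progenitors (ETP) were sorted as CD44+CD25- cells with c-Kit, DN2 cells as CD44+CD25+ and DN3 cells as CD44-CD25+. The fetal ETP, DN2 and DN3 cells came from E14.5 thymi by the labels, while the methods of the study place them a day later, and the sex of the fetuses is not given. The adult ETP, DN2 and DN3 cells came from female mice of 4 to 6 weeks. Each array held pooled RNA from several sorts, more of them for adult than for fetal arrays. Replicates are biological in the labels but technical in the study's own description. The p-values thus measure the spread between these arrays, which may be technical.

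The products of these genes form the first relay below the receptor. When the receptor is engaged, the Src family kinase Fyn and its relative Lck phosphorylate the CD3 chains, Zap70 binds there, and the transmembrane scaffold LAT is phosphorylated in turn. The adaptor Gads, encoded by Grap2, links LAT to SLP-76, the product of Lcp2, and on this platform Vav1, Tec family kinases such as Txk, protein kinase C theta (Prkcq) and the Ras activator RasGRP1 are brought into action. The phosphatase encoded by Ptpn22 removes activating phosphates from the first kinases and so damps the signal. In the thymus this machinery is first needed at the DN3 stage, when cells that have made a pre-T cell receptor are selected.

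The promoters of 5 members are shown, those with the widest spans over the arrays: Lat, Prkcq and Grap2, which rose with development, and Txk and Ptpn22, which separated fetal from adult cells. Each sequence holds the 250 bases before the first listed transcription start, 5′ to 3′ on the strand of the gene, from RefSeq on build GRCm38.p6, and all 9 members were matched in that table. Capitals mark AGGAAG, the core of ETS factor sites, on either strand, and none of the 5 holds TGTGGT, the core of RUNX sites, on either strand. RefSeq also lists transcripts that start further upstream for these 5 genes, so the sequences may lie within a longer transcript.
Lat, chr7:126369569-126369818, minus strand: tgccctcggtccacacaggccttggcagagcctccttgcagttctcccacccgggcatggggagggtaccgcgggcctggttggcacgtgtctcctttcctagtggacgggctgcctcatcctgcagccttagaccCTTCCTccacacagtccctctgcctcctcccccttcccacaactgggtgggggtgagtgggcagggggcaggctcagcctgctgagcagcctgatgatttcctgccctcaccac
Prkcq, chr2:11172132-11172381, plus strand: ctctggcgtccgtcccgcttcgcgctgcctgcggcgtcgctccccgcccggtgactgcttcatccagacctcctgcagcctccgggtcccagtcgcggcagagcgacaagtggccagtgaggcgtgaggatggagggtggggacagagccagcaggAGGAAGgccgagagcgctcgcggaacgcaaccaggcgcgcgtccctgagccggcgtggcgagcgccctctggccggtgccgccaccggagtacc
Grap2, chr15:80623233-80623482, plus strand: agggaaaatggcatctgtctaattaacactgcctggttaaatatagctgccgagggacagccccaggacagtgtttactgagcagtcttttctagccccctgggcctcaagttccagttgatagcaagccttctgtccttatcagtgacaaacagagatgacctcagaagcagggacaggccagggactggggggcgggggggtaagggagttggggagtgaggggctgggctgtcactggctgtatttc
Txk, chr5:72752778-72753027, minus strand: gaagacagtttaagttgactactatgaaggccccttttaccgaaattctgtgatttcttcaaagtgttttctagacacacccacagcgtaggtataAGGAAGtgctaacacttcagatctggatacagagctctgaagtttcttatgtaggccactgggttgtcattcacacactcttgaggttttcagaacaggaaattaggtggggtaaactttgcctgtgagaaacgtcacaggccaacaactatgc
Ptpn22, chr3:103859545-103859794, plus strand: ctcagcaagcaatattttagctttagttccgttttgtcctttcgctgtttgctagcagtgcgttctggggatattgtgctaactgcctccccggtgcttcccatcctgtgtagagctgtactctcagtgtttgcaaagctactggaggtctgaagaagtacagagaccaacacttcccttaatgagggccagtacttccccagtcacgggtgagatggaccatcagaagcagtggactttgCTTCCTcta

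At the first listed start, AGGAAG was found on either strand in 6 of the 9 members, and in 29.5% of the 32851 windows of the same length in the table. It lay 114 bases before the start of Lat, 94 before that of Prkcq, 154 before that of Txk and 9 before that of Ptpn22, counted from its first base, and the window of Grap2 does not hold these letters. TGTGGT was in none of these 9 windows and in 14% of all windows. The share of all windows counts every listed start. Over all 11 listed windows of the members TGTGGT was in 2, at a further start of Txk and of Ptpn22. CTTTGA, the core of TCF and LEF sites, was in 3 members and in 13.8% of windows. GATAA, bound by GATA factors, was in 3 members and 22.6% of windows, and the E-box CAGNTG in 5 members and 44.8% of windows. All were searched on both strands, no match of one kind was removed where it overlapped another, and a match is a description of the letters only.

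The deposited values are on a log2 scale and each probe set is centred on its median over the 18 arrays. A value of 1 therefore means that the gene stood 2-fold above its own median array, and values compare arrays for one gene but hold no level of one gene against another. A difference between groups was called where limma's adjusted p (Benjamini and Hochberg, over all probe sets) was under 0.05 and the difference at least 1.8-fold. Differences are given in log2 units ± SE, and a positive one means higher in the group named first.

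Several arrays stood apart. Adult DN3 replicates 2 and 3 had Xist, which is transcribed from the inactive X chromosome, at -11.28 and -11.34, against -1.45 to 1.59 in the 7 other adult arrays, although the labels give female mice for all. Adult DN3 replicate 3 also had Cd44, one of the sorting markers, at -0.86, against -7.97 and -7.84 in the other adult DN3 arrays. In fetal cells the embryonic globin gene Hbb-y was between -0.07 and 0.04 in the replicates numbered 1 and between 2.35 and 5.97 in the others. No 2 arrays held identical values. The medians of the arrays lay between -0.09 and 0.05, and the number of arrays limits the precision.

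Over the 6 groups together, 6 of the 9 members passed the moderated F test of limma with at least 1.8-fold between the highest and the lowest group: Lat, Prkcq, Fyn, Txk, Grap2 and Ptpn22. Of all genes, 19.7% did so. Their array values spanned between 2.13 log2 units for Fyn and 5.64 for Txk, against a median span of 1.12 over all probe sets. Lcp2, Vav1 and Rasgrp1 did not pass, with adjusted p of 0.286, 0.442 and 0.406.

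**Figure D1:**
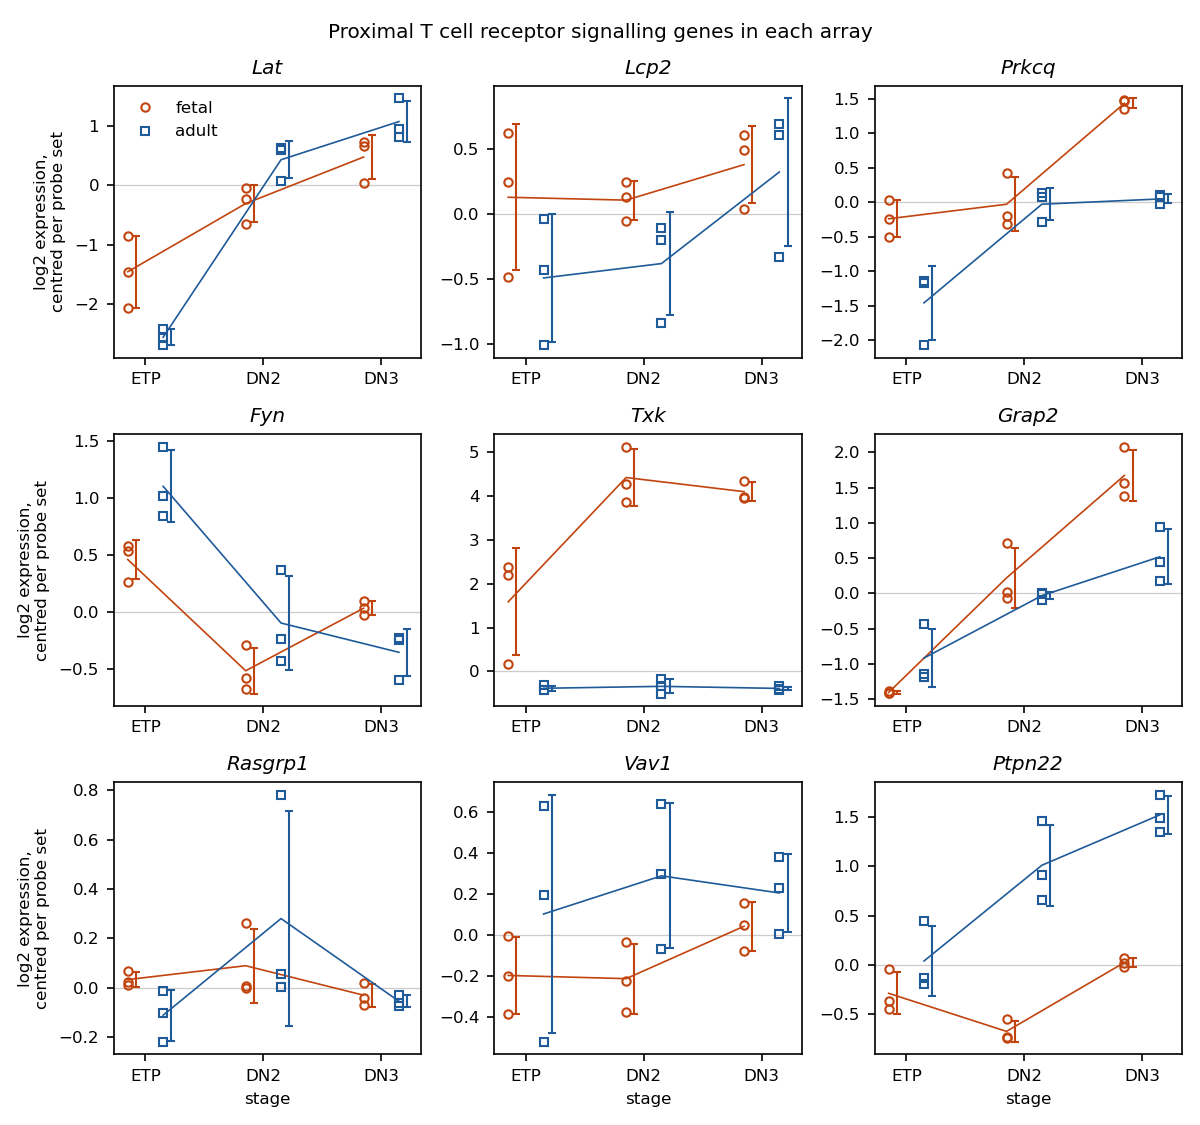
Expression of each member in every array (y axis: log2 units, centred on the median of the probe set; x axis: stage), with fetal arrays as circles and adult arrays as squares, a line through the group means and bars for the mean ± SD of 3 arrays, by the probe set that stands for the gene. Txk separates the ages at every stage, Ptpn22 at DN2 and DN3, and the axis scales differ between panels.

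Txk, a Tec family kinase of T cells and natural killer cells, showed the widest gap between the ages. In fetal cells it stood at 0.18, 2.39 and 2.19 in the ETP arrays, at 3.87, 4.28 and 5.13 in DN2 and at 3.97, 3.99 and 4.35 in DN3. In the 9 adult arrays it lay between -0.50 and -0.18. Every fetal array was thus above every adult array, and the adult stages overlapped one another. The difference between fetal and adult cells was 1.97 ± 0.45 at ETP (adjusted p = 0.0135), 4.77 ± 0.45 at DN2 (adjusted p = 4.17e-05) and 4.49 ± 0.45 at DN3 (adjusted p = 3.89e-05), which is 3.93-fold, 27.2-fold and 22.5-fold. Within fetal cells Txk rose by 2.84 ± 0.45 in DN2 against ETP (adjusted p = 0.00652), and the DN3 arrays overlapped with the DN2 arrays (difference -0.32 ± 0.45, adjusted p = 0.779). No stage difference was called in adult cells, where the largest was -0.05 (DN3 minus DN2).

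One fetal ETP array, replicate 1, was more than 2 log2 units below the other fetal ETP arrays in Txk. The same array had Hbb-y at 0.04, against 3.96 and 4.58 in the others. Fetal DN2 and DN3 replicates 1, with Hbb-y at 0.01 and -0.07, had Txk at 3.87 and 3.97, each the lowest of its group. Without replicate 1 the rise of Txk over fetal ETP was 2.13 in DN2 (4.38-fold, adjusted p = 0.00168) and 1.81 in DN3 (3.51-fold, adjusted p = 0.0013), and the difference between fetal and adult ETP was 2.68 (6.40-fold, adjusted p = 8.09e-05). Without fetal ETP replicate 2 the ETP difference of Txk was 1.57 (adjusted p = 0.063) and without replicate 3 it was 1.67 (adjusted p = 0.0543). Some markers of natural killer and innate lymphoid cells differed between the ages as well, and most did not. Of 10 such genes measured, 3 were called higher in fetal cells at ETP, 4 at DN2 and 2 at DN3, with none lower. At these stages 10.2%, 4.06% and 3.28% of all genes were called in either direction. The medians of the list were 0.23, 0.06 and 0.04, beside 0.07, 0.03 and 0.02 over all genes. The mean of the 10 in an array lay between 1.11 and 1.47 in fetal ETP, 0.70 and 0.77 in fetal DN2 and 0.13 and 0.25 in fetal DN3, against -0.75 to -0.10 in all adult arrays. For the same 3 fetal groups, taken from the earliest stage to the latest, the mean of Txk was 1.59, 4.43 and 4.10. Gzma, a granzyme gene of that list, stood between 0.11 and 0.45 in fetal ETP, against -11.29 to -7.51 in adult ETP. Its gap was smaller later, with 0.97 to 1.09 in fetal DN2 against -2.32 to -1.48 in adult DN2. At DN3 it stood at 0.93 to 0.99 in fetal against -0.39 to -0.11 in adult cells. The part of natural killer and innate lymphoid cells in the Txk difference was not tested. In sorted bulk populations a smaller share of cells with a transcript and less of it per cell cannot be told apart.

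Fyn, the Src family kinase, fell after the ETP stage. By the probe set 1448765_at it stood at 0.58, 0.26 and 0.54 in fetal ETP, at -0.30, -0.58 and -0.68 in fetal DN2 and at 0.09, 0.03 and -0.03 in fetal DN3. In adult cells the values were 1.02, 1.45 and 0.84 in ETP, -0.43, -0.24 and 0.37 in DN2 and -0.23, -0.60 and -0.25 in DN3. By this probe set the ETP arrays of each age lay above all DN2 and DN3 arrays of the same age. Across the ages they did not all do so, as fetal ETP replicate 2 (0.26) was below adult DN2 replicate 3 (0.37). Fyn fell by 1.20 ± 0.20 in adult DN2 against adult ETP (adjusted p = 0.00224) and by 1.46 ± 0.20 in adult DN3 against adult ETP (adjusted p = 0.000272). In fetal cells it fell by 0.98 ± 0.20 in DN2 against ETP (adjusted p = 0.034), and the fetal DN3 difference from ETP was -0.43 ± 0.20 (adjusted p = 0.321). The fetal fall was lost when fetal ETP replicate 1 (adjusted p = 0.168), fetal ETP replicate 3 (0.131), fetal DN2 replicate 2 (0.126) or fetal DN2 replicate 3 (0.17) was left out, with replicate numbers blocked (0.067), and without the adult arrays of low Xist (0.0541). The mean of both Fyn probe sets gave -0.83, under the 1.8-fold limit. No difference between fetal and adult cells was called for Fyn. It was -0.64 ± 0.20 at ETP (adjusted p = 0.0583), with all fetal arrays below all adult arrays.

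The other Fyn probe set, 1417558_at, gave the same direction in adult cells, with -1.32 ± 0.24 in DN2 against ETP (adjusted p = 0.00449) and -0.89 ± 0.24 in DN3 against ETP (adjusted p = 0.0283). In fetal cells its difference between DN2 and ETP was -0.68 ± 0.24 (adjusted p = 0.497), and that between DN3 and ETP was -0.07 ± 0.24 (adjusted p = 0.892), neither of them called. By this probe set the fetal DN3 arrays (0.06 to 0.29) overlapped with the fetal ETP arrays (0.15 to 0.34). The correlation of the 2 probe sets over the 18 arrays was r = 0.605.

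**Figure D2:**
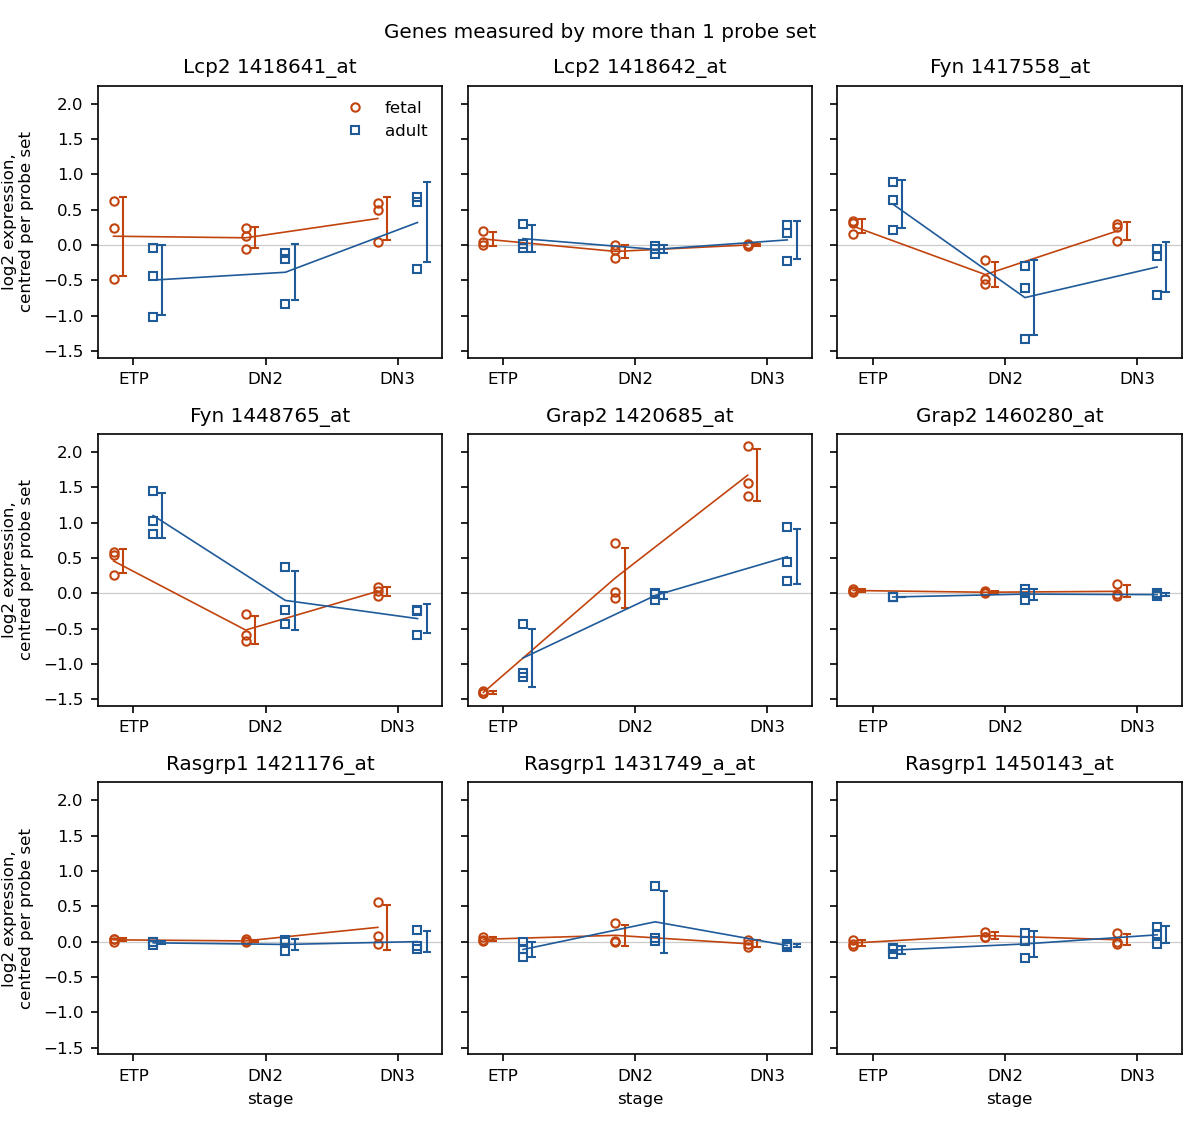
All probe sets of the 4 genes that have more than 1 (y axis: log2 units, centred on the median of the probe set; x axis: stage), with fetal arrays as circles, adult arrays as squares, and bars for the mean ± SD of 3 arrays. Both Fyn probe sets have their highest group mean in adult ETP, and of the 2 Grap2 probe sets 1460280_at stays within 0.22 log2 units over all arrays.

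Lat, the scaffold phosphorylated by Zap70, rose with development at both ages. It stood at -1.45, -0.85 and -2.06 in fetal ETP, -0.04, -0.24 and -0.65 in fetal DN2 and 0.72, 0.65 and 0.04 in fetal DN3. The adult values were -2.41, -2.56 and -2.68 in ETP, 0.62, 0.59 and 0.07 in DN2 and 1.46, 0.94 and 0.81 in DN3. The adult arrays thus began lower and ended higher than the fetal arrays, and at each stage the ages did not overlap. In adult cells Lat rose by 2.98 ± 0.29 in DN2 against ETP (adjusted p = 2.98e-05) and by 3.62 ± 0.29 in DN3 against ETP (adjusted p = 2.79e-06), a 12.3-fold difference. In fetal cells it rose by 1.92 ± 0.29 in DN3 against ETP (3.79-fold, adjusted p = 0.000885), and the single steps, 1.14 ± 0.29 for DN2 minus ETP (adjusted p = 0.122) and 0.78 ± 0.29 for DN3 minus DN2 (adjusted p = 0.306), were not called. The fetal DN2 step was called with replicate numbers blocked (adjusted p = 0.0104) and without fetal ETP replicate 2 (1.45, adjusted p = 0.0318).

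Fetal ETP had more Lat than adult ETP, by 1.10 ± 0.29 (2.14-fold, adjusted p = 0.0289). This call was lost without fetal ETP replicate 1 (adjusted p = 0.0809) or 2 (0.80 log2, adjusted p = 0.11), and without adult ETP replicate 2 (0.0752) or 3 (0.0888). At DN2 and DN3 the difference was -0.74 ± 0.29 (adjusted p = 0.237) and -0.60 ± 0.29 (adjusted p = 0.552), not called although every fetal array was below every adult array. Markers of several cell types differed between the 2 ETP populations, which does not show that such cells were present. In this comparison 10.2% of all genes were called in either direction. Of 11 myeloid markers 5, and of 7 dendritic and MHC class II markers 4, were called lower in fetal ETP. The mean of the myeloid markers in an array was 1.43 to 1.77 in fetal ETP, against 2.96 to 3.80 in adult ETP, and that of the dendritic markers 0.95 to 1.07, against 3.89 to 4.91. Of 9 T lineage markers 4 were called higher in fetal ETP, with array means of -3.07 to -1.78, against -5.46 to -3.93 in adult ETP. Their part in the Lat difference was not tested.

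Grap2, whose product bridges LAT and SLP-76, rose at both ages and furthest in fetal cells. By the probe set 1420685_at it stood at -1.39, -1.42 and -1.40 in fetal ETP, 0.02, -0.06 and 0.71 in fetal DN2 and 1.38, 1.56 and 2.08 in fetal DN3. In adult cells it stood at -1.13, -1.18 and -0.43 in ETP, -0.09, 0.01 and -0.01 in DN2 and 0.17, 0.94 and 0.45 in DN3. The 3 fetal stages did not overlap, and nor did the 3 adult stages. Grap2 rose in fetal cells by 1.62 ± 0.26 in DN2 against ETP (adjusted p = 0.00622), by 1.45 ± 0.26 in DN3 against DN2 (adjusted p = 0.00639) and by 3.07 ± 0.26 in DN3 against ETP (8.43-fold, adjusted p = 4.74e-06). In adult cells it rose by 1.43 ± 0.26 in DN3 against ETP (2.70-fold, adjusted p = 0.00207), and the DN2 step was 0.88 ± 0.26 (adjusted p = 0.0566), which was called only without adult ETP replicate 3 (1.13, adjusted p = 0.0214) among the fits that left out 1 array.

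In DN3 cells Grap2 was higher in fetal than in adult arrays, by 1.15 ± 0.26 (2.22-fold, adjusted p = 0.0262). This call was lost without adult DN3 replicate 1 (0.98, adjusted p = 0.119) or 3 (1.12, adjusted p = 0.0792) and without fetal DN3 replicate 2 (1.21, adjusted p = 0.0638) or 3 (0.95, adjusted p = 0.132), and with arrays weighted by their spread (adjusted p = 0.0969). The ages were close at DN2 (0.25 ± 0.26, adjusted p = 0.61) and the difference at ETP was -0.49 ± 0.26 (adjusted p = 0.159). The other Grap2 probe set, 1460280_at, had an F test p of 0.473 and no difference beyond 0.09 log2 in size between the groups compared, and its correlation with the first was r = 0.191. Every Grap2 result above therefore rests on 1 of 2 probe sets. The mean of both gave 0.60 for fetal minus adult DN3, 0.80 for fetal DN2 minus ETP, 0.73 for fetal DN3 minus DN2 and 0.73 for adult DN3 minus ETP, under the 1.8-fold limit in each case.

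Lcp2, which encodes the adaptor SLP-76, showed no called difference. By 1418641_at, its more variable probe set, fetal arrays ranged from -0.48 to 0.62 and adult arrays from -1.01 to 0.69. The group means were 0.13, 0.10 and 0.38 in fetal ETP, DN2 and DN3, and -0.49, -0.38 and 0.32 in adult ETP, DN2 and DN3. The spread within a group was wide, with an SD of 0.56 in fetal ETP, 0.57 in adult DN3 and 0.49 in adult ETP. The largest difference, adult DN3 minus adult ETP, was 0.82 ± 0.34 (adjusted p = 0.167), which is under the 1.8-fold limit. When arrays were weighted by their own spread, Lcp2 was called in adult DN3 against adult ETP (1.30, adjusted p = 0.01) and in fetal against adult DN2 (0.91, adjusted p = 0.0122). By 1418642_at all differences were at most 0.18 in size. Vav1, an exchange factor for Rac that remodels actin, ranged from -0.38 to 0.16 in fetal arrays and from -0.52 to 0.64 in adult arrays. Its largest difference was fetal minus adult DN2, -0.50 ± 0.24 (adjusted p = 0.388), and these groups overlapped.

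Prkcq, the kinase that links the receptor to NF-kB, rose between ETP and DN3 at both ages. It stood at -0.51, -0.24 and 0.03 in fetal ETP, -0.19, -0.31 and 0.42 in fetal DN2 and 1.48, 1.47 and 1.35 in fetal DN3. In adult cells it stood at -2.08, -1.17 and -1.14 in ETP, -0.29, 0.07 and 0.13 in DN2 and 0.07, 0.10 and -0.03 in DN3. The adult DN2 and DN3 arrays lay above all adult ETP arrays, and the fetal DN3 arrays above all other arrays. In adult cells Prkcq rose by 1.43 ± 0.24 in DN2 against ETP (adjusted p = 0.00247), and adult DN3 differed from adult DN2 by 0.08 ± 0.24 (adjusted p = 0.997). In fetal cells the DN2 difference from ETP was 0.21 ± 0.24 (adjusted p = 0.951), and Prkcq rose by 1.46 ± 0.24 in DN3 against DN2 (adjusted p = 0.00402). The steps were not shown to differ between the ages, with an interaction of -1.22 ± 0.34 for DN2 with ETP (adjusted p = 0.198) and 1.39 ± 0.34 for DN3 with DN2 (adjusted p = 0.135). Both interactions were called only when arrays were weighted by their spread (-1.28, adjusted p = 0.027, and 1.67, adjusted p = 0.0204). Over the whole course the rise from ETP was 1.67 ± 0.24 in fetal DN3 (adjusted p = 0.000591) and 1.51 ± 0.24 in adult DN3 (adjusted p = 0.000936).

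Fetal cells had more Prkcq than adult cells at ETP, by 1.22 ± 0.24 (2.33-fold, adjusted p = 0.00576), and at DN3, by 1.39 ± 0.24 (2.62-fold, adjusted p = 0.00482). At DN2 the ages overlapped, with a difference of 0.00 ± 0.24 (adjusted p = 0.998). The myeloid, dendritic and T lineage values given for Lat apply to the ETP difference too, and their part in it was not tested. Rasgrp1, the diacylglycerol-dependent activator of Ras, was flat by all 3 probe sets. Group means of 1431749_a_at ranged from -0.11 in adult ETP to 0.28 in adult DN2, where 1 array, replicate 1, stood at 0.78 and the others at 0.06 and 0.00. The largest difference of the gene by that probe set was 0.39 ± 0.15 (adult DN2 minus adult ETP, adjusted p = 0.173), and by the other 2 probe sets no difference exceeded 0.22 in size.

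Ptpn22, the phosphatase that restrains the first kinases, was lower in fetal than in adult cells from DN2 onwards. It stood at -0.04, -0.37 and -0.45 in fetal ETP, -0.55, -0.73 and -0.74 in fetal DN2 and 0.02, -0.02 and 0.07 in fetal DN3. The adult values were 0.44, -0.20 and -0.13 in ETP, 1.46, 0.66 and 0.91 in DN2 and 1.73, 1.49 and 1.35 in DN3. All adult DN2 and DN3 arrays lay above all fetal arrays. The difference between fetal and adult cells was -1.68 ± 0.20 at DN2 (3.21-fold lower, adjusted p = 0.000271) and -1.497 ± 0.20 at DN3 (2.82-fold lower, adjusted p = 0.000521). At ETP the ages overlapped (-0.33 ± 0.20, adjusted p = 0.208). In adult cells Ptpn22 rose by 0.97 ± 0.20 in DN2 against ETP (adjusted p = 0.00872) and by 1.48 ± 0.20 in DN3 against ETP (adjusted p = 0.000234). Without adult DN2 replicate 1 the DN2 step was 0.75, under the 1.8-fold limit. In fetal cells no step was called, with -0.39 ± 0.20 in DN2 against ETP and 0.70 ± 0.20 in DN3 against DN2 (adjusted p = 0.951 and 0.105).

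**Figure D3:**
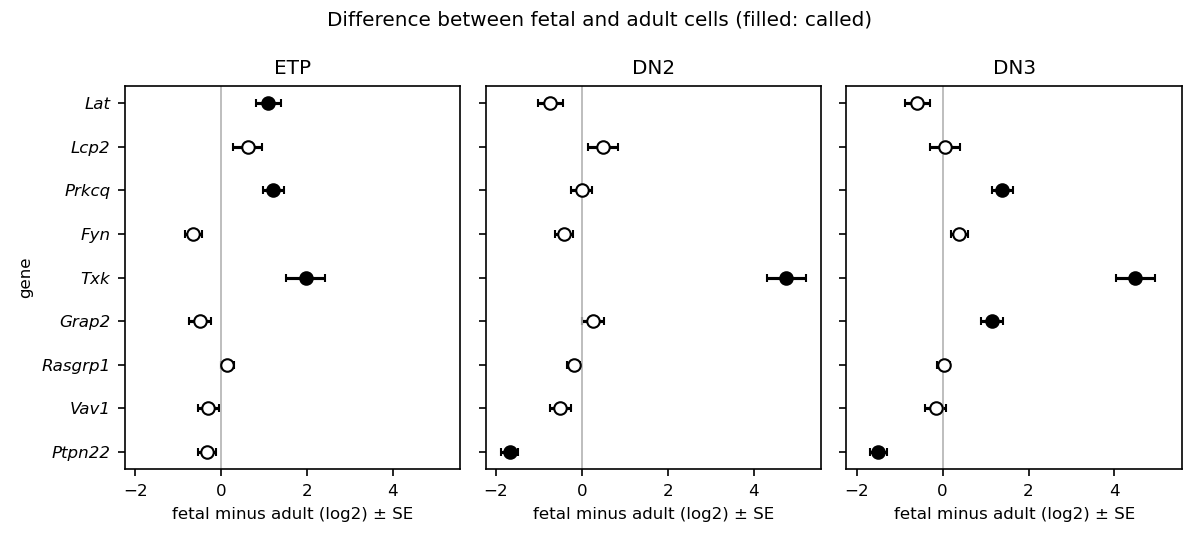
Difference between fetal and adult cells for each member at ETP, DN2 and DN3 (x axis: log2 difference, fetal minus adult, with bars for the SE of limma; y axis: gene), where filled points were called. Txk lies to the right at all 3 stages, Prkcq at ETP and DN3, and Ptpn22 to the left at DN2 and DN3.

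Counted by stage, 3 of the 9 members were called between fetal and adult ETP (Lat, Prkcq and Txk, all higher in fetal cells), where 10.2% of all genes were called. At DN2 it was 2 members, Txk higher and Ptpn22 lower in fetal cells, against 4.06% of all genes. At DN3 it was 4 members, with Prkcq, Txk and Grap2 higher and Ptpn22 lower in fetal cells, against 3.28% of all genes. The median difference of the 9 members was 0.14, -0.19 and 0.06 at ETP, DN2 and DN3, beside 0.07, 0.03 and 0.02 over all genes. The 3 comparisons share no arrays, but they share a common estimate of the spread. Same-numbered fetal arrays also deviated together across stages, in 9 of 9 pairs, so the counts are not independent.

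The 2 adult DN3 arrays of low Xist bear on the DN3 comparison. Without them the fetal minus adult DN3 difference was 4.53 for Txk (adjusted p = 0.00184), 1.501 for Grap2 (adjusted p = 0.0271) and -1.70 for Ptpn22 (adjusted p = 0.00425), all still called. That of Prkcq was 1.37 with an adjusted p of 0.064, no longer called. The lone adult DN3 array is then assumed to vary like the arrays of the other groups.

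Comparisons of stages within one age share arrays. Between the stages of fetal cells, 3 members were called in DN2 against ETP (Txk and Grap2 higher, Fyn lower), where 1.23% of all genes were called. In fetal DN3 against DN2 it was Prkcq and Grap2, both higher, against 2.96% of all genes, and in fetal DN3 against ETP it was Lat, Prkcq, Txk and Grap2, all higher, against 6.38%. Between the stages of adult cells, 4 members were called in DN2 against ETP (Lat, Prkcq and Ptpn22 higher, Fyn lower), where 7.46% of all genes were called. In adult DN3 against DN2 none of the 9 was called, against 1.09% of all genes, and with arrays weighted by their spread Lcp2 was (1.33, adjusted p = 0.0061). In adult DN3 against ETP it was 5, with Lat, Prkcq, Grap2 and Ptpn22 higher and Fyn lower, against 12.9% of all genes. The median difference of the members in DN3 against ETP was 0.31 in fetal cells and 0.82 in adult cells, beside -0.05 and 0.00 over all genes.

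Without the 2 adult DN3 arrays of low Xist, the adult DN3 minus ETP difference was 4.01 for Lat (adjusted p = 5.83e-05), 1.53 for Prkcq (adjusted p = 0.0232), -1.33 for Fyn (adjusted p = 0.0128) and 1.69 for Ptpn22 (adjusted p = 0.00289). That of Grap2 was 1.09 and no longer called (adjusted p = 0.0853). Over all 6 groups, the low and high ends of the order differed from gene to gene. For Lat and Prkcq adult ETP was lowest, followed by fetal ETP, and the 2 did not overlap. The highest group was adult DN3 for Lat and Ptpn22, fetal DN3 for Prkcq and Grap2, fetal DN2 for Txk and adult ETP for Fyn. Adult DN3 overlapped with adult DN2 in Ptpn22, as fetal DN2 did with fetal DN3 in Txk, while the highest group of the other 4 genes stood clear of the next.

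**Figure D4:**
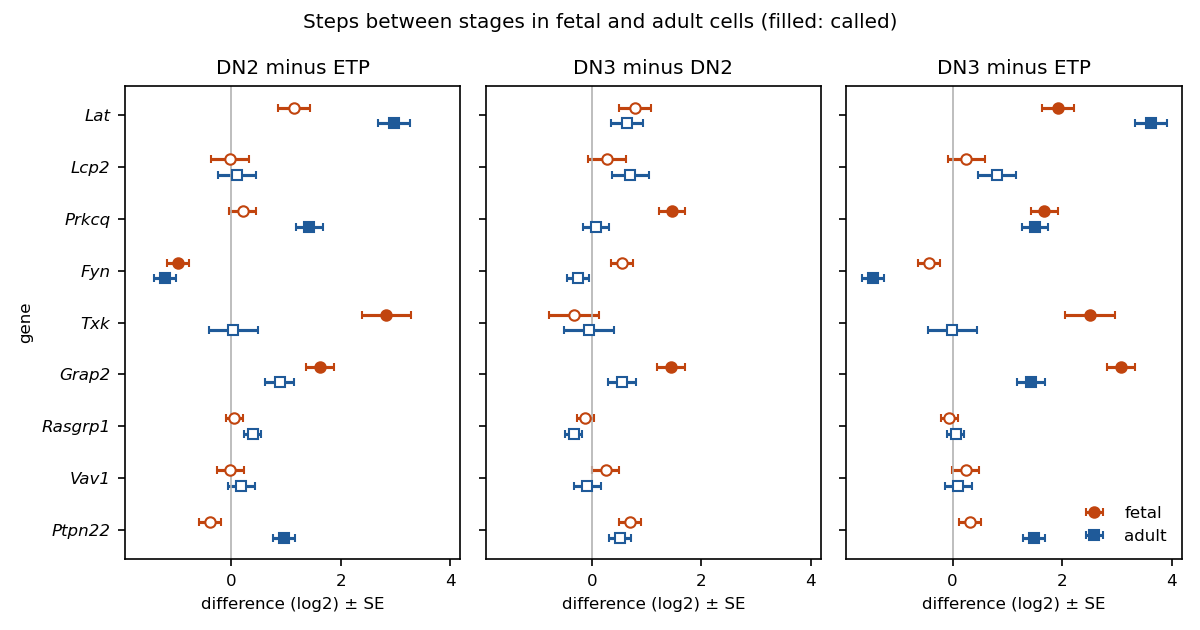
Differences between stages for each member in fetal cells (circles) and adult cells (squares), for DN2 minus ETP, DN3 minus DN2 and DN3 minus ETP (x axis: log2 difference with bars for the SE of limma; y axis: gene), where filled points were called. For Prkcq the called single steps are DN2 minus ETP in adult cells (1.43) and DN3 minus DN2 in fetal cells (1.46). The interactions of these steps were called only with arrays weighted by their spread. The fetal Grap2 difference between DN3 and ETP is 3.07, against 1.43 in adult cells.

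Whether the fetal against adult difference itself changed between stages was tested as an interaction. From ETP to DN3 it changed for Lat by -1.69 ± 0.41 (adjusted p = 0.0492), for Grap2 by 1.64 ± 0.36 (adjusted p = 0.0305) and for Ptpn22 by -1.17 ± 0.28 (adjusted p = 0.0464), that is for 3 members, against 3.03% of all genes. From ETP to DN2 it changed for 1 member, Ptpn22, by -1.36 ± 0.28 (adjusted p = 0.0445), against 0.984% of all genes, and from DN2 to DN3 for none of the 9 (0.71% of all genes). Lat thus rose less in fetal than in adult cells, Grap2 rose further, and the adult rise of Ptpn22 was not matched in fetal cells. The corresponding changes for Txk, 2.79 ± 0.64 from ETP to DN2 (adjusted p = 0.0788) and 2.52 ± 0.64 from ETP to DN3 (adjusted p = 0.0589), were not called, and nor was that of Lat from ETP to DN2 (-1.83 ± 0.41, adjusted p = 0.0731). With replicate numbers blocked, Lat was called from ETP to DN2 (adjusted p = 0.00561) and Txk from ETP to DN3 (adjusted p = 0.0393). All 4 calls lay just under the threshold. Of 21 other settings for each, Grap2 kept its call in 11, Ptpn22 in 7 (to DN2) and 6 (to DN3) and Lat in 6, always in the same direction. With each of 12 arrays left out in turn, the call was lost in 10 fits for Ptpn22 to DN2 (kept without adult ETP replicate 1 or adult DN2 replicate 2) and in 11 for Ptpn22 to DN3 (kept without adult ETP replicate 1). It was lost in 11 for Lat (kept without fetal ETP replicate 3) and in 8 for Grap2 (kept without fetal DN3 replicate 1, adult DN3 replicate 2 and either of adult ETP replicates 1 and 2). The adjusted p in the fits that lost a call lay between 0.0533 and 0.124.

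As a description, the correlations of members over the 18 arrays were highest for Prkcq with Grap2 (r = 0.789), Lat with Grap2 (0.681) and Lat with Prkcq (0.668), and lowest for Lat with Fyn (-0.793) and Txk with Ptpn22 (-0.695). The arrays fall into 6 groups that these values share, so no test was made. Of 4855 other genes whose group means span at least 1.8-fold, the most like Lat were Bcl11b (0.966), a transcription factor of T lineage commitment, Itm2c (0.953) and Arhgap9 (0.95). Most like Txk were Scd1 (0.948), Ndrg2 (0.946) and Insl5 (0.939), most like Prkcq were Tasp1 (0.926), Cndp2 (0.919) and Pmm1 (0.904), and most like Grap2 were Morc1 (0.923), Tmem120b (0.91) and Prnp (0.907). For Ptpn22 these were Slc30a4 (0.938), Prkacb (0.921) and the glucocorticoid receptor gene Nr3c1 (0.906), and for Fyn Slc26a2 (0.925), Dip2b (0.893) and Dnajc3 (0.889). Of the members with no called difference, Vav1 was most like Dgat1 (0.806), Lcp2 most like Abhd17c (0.906), and Rasgrp1 most like Prss2 (0.917). The Rasgrp1 value may rest on 1 array, adult DN2 replicate 1 at 0.78, as all others lay between -0.22 and 0.26. The other Rasgrp1 probe sets had r of -0.165 and -0.291 with the one used.

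The wider pathway was followed with 6 lists of genes around the members. Of the receptor chains and first kinases, 10 of 12 were measured, and 7 were higher and none lower in DN3 than in ETP, in fetal cells as in adult cells. The median difference of the list was 5.08 in fetal and 5.27 in adult cells, beside -0.05 and 0.00 over all genes. In these comparisons 6.38% and 12.9% of all genes were called in either direction. In fetal DN3 against ETP the CD3 chain gene Cd3d rose by 8.08 and the pre-T alpha gene Ptcra by 8.42, and in adult cells by 9.37 and 9.70. Between the ages, 1 of the 10 was called at ETP, 2 at DN2 and 1 at DN3, against 10.2%, 4.06% and 3.28% of all genes. Cd3g was higher in fetal ETP by 7.37 ± 0.77, and Cd247 and Zap70 were lower in fetal DN2 (-2.38 ± 0.45 and -1.28 ± 0.31). The list also holds Cd28 and Cd2, which encode neither a receptor chain nor a kinase. Cd2 was higher in fetal DN3 by 5.44 ± 0.13.

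Of the partners of the LAT and SLP-76 complex, 18 of 22 were measured. In fetal DN3 against ETP 3 were higher and 1 lower, and in adult cells 4 and 2, with list medians of -0.05 and 0.04. The shares of all genes called there were 6.38% in fetal and 12.9% in adult cells. The adaptor gene Sh2d2a rose by 2.82 ± 0.52 in fetal and 4.13 ± 0.52 in adult cells, and Fyb, whose product binds SLP-76, rose by 1.62 ± 0.22 and 2.44 ± 0.22. Skap2, an adaptor that binds the Fyb product, differed by -2.58 ± 0.28 and -2.66 ± 0.28. Between the ages, the Ras exchange factor gene Sos2 was lower in fetal cells at ETP (-1.08 ± 0.21) and DN3 (-0.91 ± 0.21). The actin regulator Evl was higher in fetal DN3 (4.31 ± 0.87), and none of the list was called at DN2. At ETP, DN2 and DN3, 10.2%, 4.06% and 3.28% of all genes were called.

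Of the branches below protein kinase C theta and RasGRP1, 31 of 41 were measured, and most were not called. The list median in DN3 against ETP was 0.09 in fetal and 0.01 in adult cells, where 6.38% and 12.9% of all genes were called. There 1 was higher in fetal cells, the calcium channel gene Itpr2 (4.72 ± 0.48), while in adult cells 4 were higher and 4 lower, and without the arrays of low Xist 1 higher and 4 lower. Itpr2 rose by 5.01 ± 0.48 there, while Orai1, a channel for calcium entry, fell by 3.19 ± 0.43 and the calcineurin gene Ppp3ca fell by 2.41 ± 0.29. In fetal against adult ETP the early response gene Egr1 was lower (-4.66 ± 1.13), as were Nfkbia (-2.38 ± 0.38) and Orai1 (-1.73 ± 0.43), and Map3k7 was higher (2.79 ± 0.56). At DN2 none of the 31 was called, and at DN3 only Ppp3ca, which was higher in fetal cells by 1.28 ± 0.29. Between the ages 10.2%, 4.06% and 3.28% of all genes were called at ETP, DN2 and DN3.

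Of a list drawn up as inhibitors of receptor signalling, without Ptpn22, 27 of 34 genes were measured. In DN3 against ETP 5 were higher and 1 lower in fetal cells, and 7 higher and 5 lower in adult cells. The list medians were -0.05 and -0.22, beside -0.05 and 0.00 over all genes, of which 6.38% and 12.9% were called. Sh2d1a, which is in the list although it encodes SAP, an adaptor of SLAM receptors, rose by 7.88 ± 0.65 in fetal and 8.45 ± 0.65 in adult cells. The transmembrane adaptor gene Sit1 rose by 5.49 ± 0.37 and 5.07 ± 0.37, and Dgka, a kinase that removes diacylglycerol, by 3.73 ± 0.35 and 3.46 ± 0.35. Between the ages, Sh2d1a and Sit1 were lower in fetal DN2 than in adult DN2 (-3.56 ± 0.65 and -1.81 ± 0.37). These were 2 of 27 at DN2, where 4.06% of all genes were called. None of the list was called at DN3, and 3 were lower in fetal ETP: Cd6 (-3.13 ± 0.79), Spry2 (-1.94 ± 0.22) and Rasa2 (-1.23 ± 0.27). That is 3 of 27 at ETP, where 10.2% of all genes were called, against 3.28% at DN3.

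Relatives of the members that serve B, myeloid and mast cells were called lower more often than higher, and most were not called. Of 23 measured, 6 were lower and 3 higher in fetal DN3 than in fetal ETP, and in adult cells 9 were lower and 3 higher. The list medians were -0.08 and -0.09, beside -0.05 and 0.00 over all genes, of which 6.38% and 12.9% were called in either direction. Btk, the Tec kinase of B cells, fell by 4.72 ± 0.94 in fetal cells and fell by 5.77 ± 0.94 in adult cells, and the protein kinase C gene Prkcb rose by 5.21 ± 0.79 and 4.78 ± 0.79. A further list held genes of ligand receptors that share the adaptors, Cd6 among them. Of 10 measured, 3 were lower in fetal and 4 lower in adult DN3 than in ETP, with none higher and medians of -0.06 and -0.08. Tyrobp, the signalling chain of innate receptors, fell by 6.37 ± 0.68 in fetal and fell by 6.62 ± 0.68 in adult cells. Its relative Fcer1g was higher in fetal cells at ETP (1.79 ± 0.42) and DN2 (2.73 ± 0.42). Myeloid markers fell over the same steps, 4 of 11 in fetal and 7 of 11 in adult cells with none higher, and their part in these falls was not tested. Without the 2 arrays of low Xist a lone adult DN3 array is left, so counts of called list genes are not given for that fit. Calls between fetal and adult DN3 then changed for partners, branch genes, inhibitors and relatives, and more of all genes were called. In adult DN3 against ETP fewer of all genes were called.

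**Figure D5:**
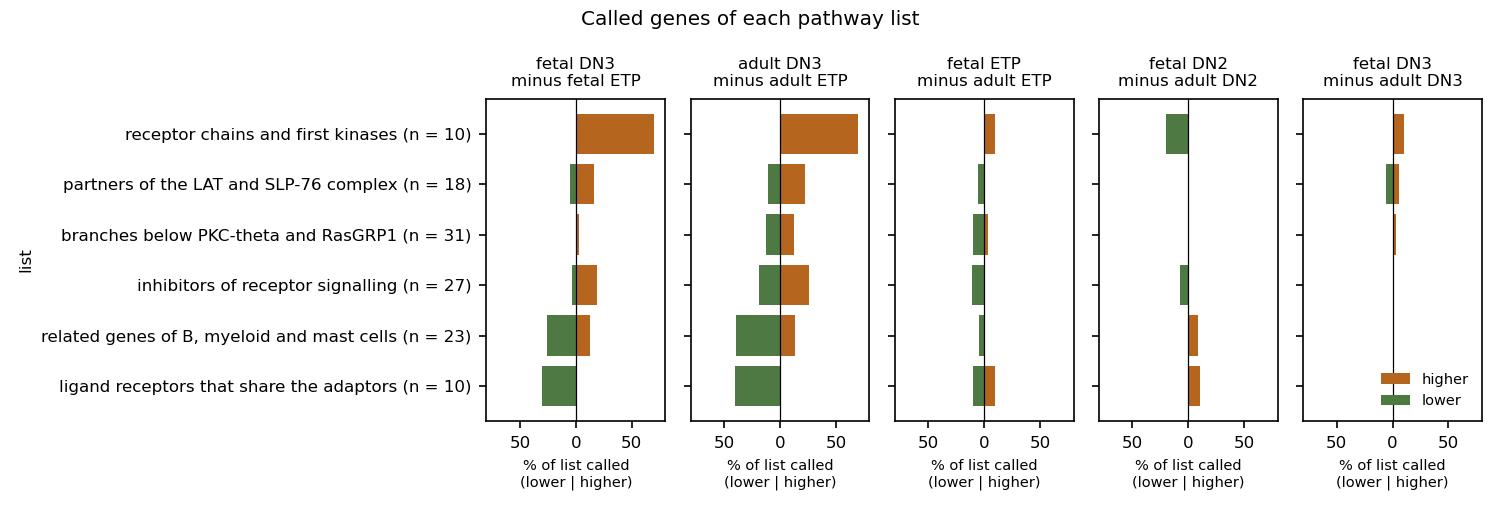
Share of the measured genes of each pathway list called higher (right of 0) or lower (left of 0) in 5 comparisons (x axis: percent of the list; y axis: list, with the number of genes measured). The receptor chains and first kinases stand out to the right in DN3 against ETP at both ages, with 7 of 10 genes, and few genes of any list are called between the ages.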

How the data were processed

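Each array measured RNA of 1 sorted population, with 3 arrays per group, and groups were taken from the sample labels. The authors normalized the arrays by GCRMA (version not given in the sources used here), and the deposited log2 values are centred for each probe set on its median over the 18 arrays. They hold no level and no detection call, so dim probe sets could not be filtered. All 18 columns were mapped to samples, 0 were left over, and no columns of the authors' own comparisons were used. Of 22626 probe sets, 20380 name 1 gene, 691 several and 1555 none, by GEO's platform annotation. For each gene 1 probe set was used (no _x_at or _s_at where another exists, then the largest SD), which gives 12393 genes, and every member probe set was also tested.

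One mean per group was fitted over all arrays with limma 3.58.1 in R 4.3.3 (lmFit, contrasts, eBayes), with Benjamini and Hochberg adjustment over all probe sets. A call needed an adjusted p under 0.05 and 1.8-fold. All members were named, and for each pathway list up to 4 called genes of the largest difference were considered. The members and lists were chosen with earlier results of these data known. The code was tested on simulated data. Replicate numbers pair part of the arrays, by an r over 0.1 in every pair: same-numbered arrays deviated together in 9 of 9 fetal pairs (r of 0.312 to 0.597), in 3 of 3 pairs of adult DN2 with adult DN3, and, across the ages, in 3 of 3 pairs of adult DN2 with each fetal group. Over all groups it was 27 of 45 pairs. Alternatives were array centring, array weights, robust fitting, a higher fold, the mean of probe sets, the compared groups alone, the methods' one-way test, the replicate block, leaving out each array in turn, and leaving out the adult arrays of low Xist. Figures were drawn with matplotlib 3.10.9 in Python 3.11.15.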

Additional observations from a re-analysis of the deposited data

Results flagged for a closer look

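For 3 members the difference between fetal and adult cells was itself different between stages, by the interaction term of limma. Between ETP and DN3 it changed by -1.69 ± 0.41 for Lat (adjusted p = 0.0492), by 1.64 ± 0.36 for Grap2 (adjusted p = 0.0305) and by -1.17 ± 0.28 for Ptpn22 (adjusted p = 0.0464). Between ETP and DN2 it changed by -1.36 ± 0.28 for Ptpn22 (adjusted p = 0.0445). The Grap2 value comes from 1 of its 2 probe sets, and the mean of both gave 0.80, under the 1.8-fold limit.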

How the results depend on the processing

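The 37 called member differences were refitted under 711 alternatives in all, of which 581 kept the call and the direction, 130 lost the call and 0 changed sign. Of 1485 alternatives on the 80 uncalled differences, 27 gave a call. The F test over the 6 groups called 6 members under every setting but array weights, which called 7 (Lcp2 added).

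Counts of members called moved most with the fit. With the compared groups alone, 0 were called in fetal against adult ETP (3 in the fit over all groups), 1 at DN2 (2), 1 in adult DN2 against ETP (4), 3 in adult DN3 against ETP (5), 0 in fetal DN2 against ETP (3), 1 in fetal DN3 against DN2 (2), 0 in the interaction of DN2 with ETP (1) and 1 in that of DN3 with ETP (3). The methods' one-way test, after Benjamini-Hochberg adjustment, called 0 at ETP and 0 at DN2 between the ages, 0 in adult DN2 against ETP, 1 in adult DN3 against ETP, 0 in fetal DN2 against ETP, 0 in fetal DN3 against DN2 and 2 in fetal DN3 against ETP. A limit of 3-fold left 1 between the ages at ETP, 1 at DN3, 1 in adult DN2 against ETP, 1 in adult DN3 against ETP, 0 in fetal DN3 against DN2 and 0 in the interaction of DN2 with ETP. Averaging the probe sets of each gene left 1 in fetal DN2 against ETP and 1 in fetal DN3 against DN2. In the interaction of DN3 with ETP it added Fyn (0.93, adjusted p = 0.00996) and Txk (2.52, adjusted p = 0.0444) and lost Grap2 (0.80). Array weights called 1 in adult DN3 against DN2, 4 in the interaction of DN2 with ETP and 2 in that of DN3 with DN2. Array centring left 0 in the interaction of DN2 with ETP and 1 in that of DN3 with ETP, the robust fit 1 in the second, and leaving out the arrays of low Xist 0 in the first. Leaving out 1 array at a time gave 1 to 3 in fetal against adult ETP, 0 to 1 in the interaction of DN2 with ETP and 0 to 2 in that of DN3 with ETP.

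With the replicate number as a block, 2 members were called in the interaction of DN2 with ETP, where Lat was added (adjusted p = 0.00561), and Txk was added in that of DN3 with ETP (adjusted p = 0.0393). The block added Grap2 in adult DN2 against ETP (adjusted p = 0.0286), where 1 of 3 same-numbered pairs of arrays deviated together. Apart from these and the Fyn and Lat values given in the report, it changed no member's call.

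Without fetal ETP replicate 1, the interactions of Txk were called, at 2.09 for DN2 with ETP (adjusted p = 0.0174) and 1.81 for DN3 with ETP (adjusted p = 0.0229). They were called too without fetal ETP replicate 2 (3.20, adjusted p = 0.0365, and 2.92, adjusted p = 0.0332), and that of DN3 with ETP without replicate 3 (2.82, adjusted p = 0.0449). The interaction of Lat for DN2 with ETP was called without fetal ETP replicate 3 (-2.14, adjusted p = 0.0179). With 3 arrays per group and centred values, small differences of Lcp2, Vav1 and Rasgrp1 could not be resolved from the spread, and signal over background cannot be judged. The cause of these changes was not tested.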
